A study of Mus musculus with 3186 samples.

Results

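Prostaglandin synthesis and breakdown was followed through 8 genes across the cells of the adult mouse brain vasculature. The genes were taken by name from the deposited count matrix and are 8 of its 19937 genes: the cyclooxygenases Ptgs1 and Ptgs2, the terminal synthases Ptgds, Ptges, Ptges3, Ptgis and Tbxas1, and the breakdown enzyme Hpgd. All 8 had reads, from 5836 over all cells for Tbxas1 to 1502808 for Ptgds. Brain cells of C57BL/6 mice aged 12 to 15 weeks were sorted by fluorescence into 384-well plates, and 1 SMART-seq2 library of full-length complementary DNA was made from each of 3186 cells. The Cldn5(BAC)eGFP line marks brain endothelium and gave 1445 cells on 4 plates, mice positive for both Pdgfrb(BAC)eGFP and NG2dsRed mark mural cells and gave 1484 cells on 4 plates, and the Pdgfra-H2BGFP line marks a perivascular population and the oligodendrocyte lineage and gave 257 cells on 2 plates. No group was treated, every animal carried a reporter, and the labels name neither animals nor the number of animals behind a plate.

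Prostaglandins are short-range lipid signals made from arachidonic acid. Ptgs1, the constitutive cyclooxygenase, and Ptgs2, the inducible one, make the shared precursor prostaglandin H2, which the terminal synthases turn into separate products: Ptgds makes prostaglandin D2, Ptges and Ptges3 make prostaglandin E2, Ptgis makes the vasodilator prostacyclin, and Tbxas1 makes thromboxane A2. Hpgd oxidises and inactivates prostaglandins. Ptgds is also known as beta-trace, a major protein of the cerebrospinal fluid, and Ptges3 is also known as p23, a co-chaperone of Hsp90.

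The labels give a reporter line for each cell but no cell type. Cells were therefore clustered with the 8 genes and the other genes of their pathway left out, and clusters were named from marker genes. This gave 334 arterial-like, 738 capillary-like and 403 venous-like endothelial cells, 1126 pericyte-like and 211 smooth muscle-like mural cells, 76 fibroblast-like and 150 oligodendrocyte-like cells, besides 19 microglia-like cells, 20 oligodendrocyte progenitor-like cells and 109 unnamed cells. The names rest on rebuilt clusters and not on an annotation by the authors. A cell had from 99905 to 1606954 reads in genes, with a median of 350339. Pericyte-like, smooth muscle-like, fibroblast-like and oligodendrocyte-like cells each came from 1 line only, as did 1431 of the 1475 endothelial-like cells, so that class and line cannot be told apart outside a plate. Wells were counted as mixed where the markers of another class summed to at least 10% of their median in that class. This held for 288 of 3186 wells (9.04%), among them 16 of 76 fibroblast-like and 135 of 1126 pericyte-like wells. All 109 unnamed cells are in this count, because a cell without a class has no marker list of its own. Oligodendrocyte progenitor-like cells had no own list in it either, and pericyte and smooth muscle markers were not held against each other. With no animals named, a class is 1 sample: levels are pooled CPM, the reads of a gene scaled to the same total of reads in every pool, given with exact Poisson 95% intervals, and the share of cells holding a read has an exact binomial 95% interval. Both intervals cover counting error only. No test between classes was possible. The range over plates holding at least 10 cells of a class is given as the measure of spread. A gene is called different where pooled CPM differ at least 2-fold and 1 side reaches 5 CPM, and a log2 ratio is taken after adding 1 CPM to both sides.

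The sequences upstream of 5 of the genes are shown because the levels of these genes set the classes apart. RefSeq start sites of the build GRCm38.p6 matched 7 of the 8 genes, all except Ptgis. Each line runs 5′ to 3′ toward the start site and stops before the first base of an annotated exon of the gene. Capitals mark GGGCGG, the core of the GC box bound by Sp factors, on either strand.
Ptgs1, chr2:36230176-36230425, plus strand: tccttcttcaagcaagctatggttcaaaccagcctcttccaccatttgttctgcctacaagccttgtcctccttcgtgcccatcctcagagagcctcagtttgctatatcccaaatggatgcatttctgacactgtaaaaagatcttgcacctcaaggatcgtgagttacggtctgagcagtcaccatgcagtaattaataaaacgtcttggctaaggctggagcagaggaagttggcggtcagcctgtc
Ptgs2, chr1:150099781-150100030, plus strand: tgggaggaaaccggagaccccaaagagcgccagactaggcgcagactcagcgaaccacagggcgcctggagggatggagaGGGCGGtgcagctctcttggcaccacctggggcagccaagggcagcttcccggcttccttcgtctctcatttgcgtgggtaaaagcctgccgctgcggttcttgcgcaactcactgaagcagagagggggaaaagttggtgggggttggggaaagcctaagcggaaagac
Ptges, chr2:30903298-30903547, minus strand: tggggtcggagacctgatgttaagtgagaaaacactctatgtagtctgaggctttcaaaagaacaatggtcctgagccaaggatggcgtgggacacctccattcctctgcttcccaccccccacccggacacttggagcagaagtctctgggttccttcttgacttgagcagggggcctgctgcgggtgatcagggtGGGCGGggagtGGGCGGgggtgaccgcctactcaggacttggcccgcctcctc
Hpgd, chr8:56294302-56294551, plus strand: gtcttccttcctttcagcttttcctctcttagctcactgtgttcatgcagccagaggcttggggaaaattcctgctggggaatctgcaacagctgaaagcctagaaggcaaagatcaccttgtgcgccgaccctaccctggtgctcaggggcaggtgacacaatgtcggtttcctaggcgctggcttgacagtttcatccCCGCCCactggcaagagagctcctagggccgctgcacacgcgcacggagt
Ptgds, chr2:25469843-25469999, minus strand: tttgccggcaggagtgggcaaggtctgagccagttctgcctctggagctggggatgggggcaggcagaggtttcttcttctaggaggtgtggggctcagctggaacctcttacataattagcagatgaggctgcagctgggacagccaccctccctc

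Both strands of the 250 bases before each start site were searched for TATAAA (the TATA box), GGGCGG as above, TGACGT (a core of the cyclic AMP response element), CACGTG (an E box), TGACTCA (an AP-1 site) and the CArG box of serum response factor. None of these motifs overlapped another in the windows printed. Upstream of Ptges, GGGCGG stood at bases -53 to -48 and again at -42 to -37, counted back from the start site. The Ptgs2 window held GGGCGG at -170 to -165, and the Hpgd window held it on the minus strand at -50 to -45. Of 32851 upstream windows of the same length in the mouse table, 32.7% held GGGCGG, 12.4% TATAAA, 6.47% TGACGT, 6.02% CACGTG, 4.46% TGACTCA and 1.47% a CArG box. The Ptgs1 window held none of the 6. In Ptgds, TGACTCA stood at -35 to -29, in a stretch not printed because another annotated transcript has an exon there. Ptges3 had the highest share of G and C, at 73.2%, and Tbxas1 the lowest, at 43.6%, against a median of 52.4% over all windows. These matches describe letters and not binding.

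**Figure D1:**
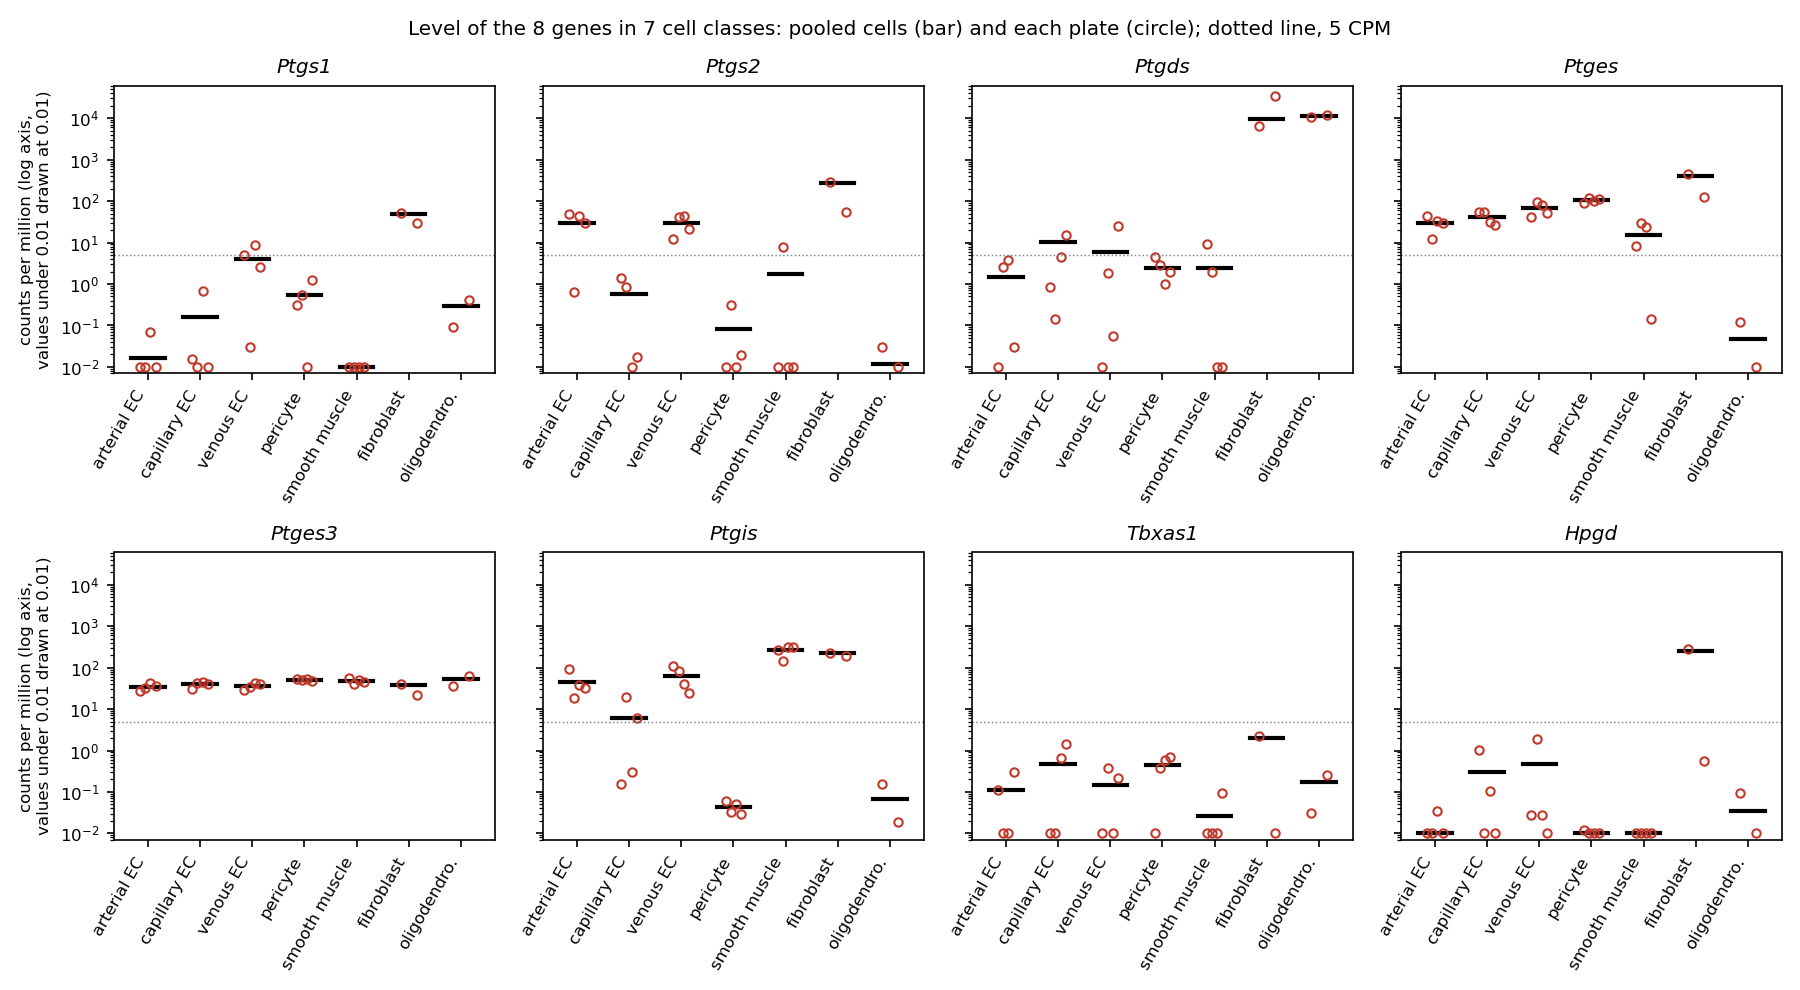
Pooled level of each of the 8 genes (CPM, log axis) in 7 classes of brain cells (EC, endothelial cells), as a bar for all cells pooled and a circle for each plate with at least 10 cells of the class; values under 0.01 CPM are drawn at 0.01, and the dotted line marks 5 CPM. Ptgds lies near 10000 CPM in oligodendrocyte-like and fibroblast-like cells and at 10.5 CPM or less in the 5 other classes, while Ptges3 lies between 34.9 and 53.7 CPM in all 7.

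Among the 7 classes, cyclooxygenase levels were highest in fibroblast-like cells and, for Ptgs2, next highest in the endothelium of larger vessels. The 19 microglia-like cells, left out of the 7 classes, held Ptgs1 at 668 CPM. Ptgs2 reached 270 CPM in fibroblast-like cells, 30.2 CPM in arterial-like and 29.1 CPM in venous-like endothelium, against 0.565 CPM in capillary-like endothelium. Pericyte-like cells (0.0833 CPM), smooth muscle-like cells (1.78 CPM) and oligodendrocyte-like cells (1 read in 150 cells) were near 0. Ptgs1 reached 49.3 CPM in fibroblast-like cells and at most 4.07 CPM, in venous-like endothelium, elsewhere among the 7 classes.

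Ptgs2 (ENSMUSG00000032487.8, chr1:150100031-150108227, plus strand) was a gene of few cells in every class. In fibroblast-like cells 24 of 76 had a read (31.6%, interval 21.4 to 43.3%), 18 had at least 5 reads, and the 5 cells with the most Ptgs2 held 69.5% of its reads. On the 2 Pdgfra-H2BGFP plates the pooled level was 296 and 53.5 CPM. In arterial-like endothelium 21 of 334 cells had a read (6.29%), and the plates stood at 50.0, 0.64, 42.8 and 29.8 CPM. The second of these plates, EC4, lay as low as the capillary-like cells. In venous-like endothelium 24 of 403 cells had a read (5.96%), with plates at 12.1, 40.9, 44.9 and 21.1 CPM. Capillary-like endothelium had 7 of 738 cells with a read (0.949%) and plates from 0 to 1.36 CPM, so that none of its plates reached any venous-like plate. Among smooth muscle-like cells, 1 cell of 211 carried all 138 reads. An antisense gene, Ptgs2os, starts beside Ptgs2. Its own row held 222 reads in 7 fibroblast-like cells against 13805 reads of Ptgs2, and whether counting used the strand is not stated.

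Ptgs1 (ENSMUSG00000047250.13, chr2:36230426-36252272, plus strand) had reads in 9 of 76 fibroblast-like cells (11.8%, interval 5.56 to 21.3%), with plates at 51.6 and 29.3 CPM. In the venous-like class 6 of 403 cells had a read and 5 of them held 99.8% of the reads. Smooth muscle-like cells had 0 reads in 211 cells, which allows up to 0.0387 CPM by a limit of 3 counts. The microglial markers Cx3cr1 and C1qa were at 0.0783 and 10.4 CPM in fibroblast-like cells, and C1qa was at 5.03 CPM in venous-like endothelium. Their part in the Ptgs1 values was not tested.

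A read of either cyclooxygenase was present in 30 of 76 fibroblast-like cells (39.5%), in 23 of 334 arterial-like (6.89%), 26 of 403 venous-like (6.45%) and 12 of 738 capillary-like endothelial cells (1.63%), in 13 of 1126 pericyte-like cells (1.15%) and in 1 of 211 smooth muscle-like cells (0.474%). These are shares of cells within 1 sample per class and carry no test. On plate EC4 the arterial-like pool, at 0.64 CPM of Ptgs2, did not exceed the capillary-like pool, at 0.84 CPM. The share in oligodendrocyte-like cells was 6 of 150 (4%), with 1 cell above 4 reads of Ptgs1 and none above 4 reads of Ptgs2.

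Ptgds (ENSMUSG00000015090.13, chr2:25466709-25470046, minus strand), the prostaglandin D synthase, was the highest of the 8 genes in 2 classes. Per kilobase of exon it stood at 7063 CPM in oligodendrocyte-like cells and 5779 CPM in fibroblast-like cells, where the next gene per kilobase, Hpgd, reached 147. In oligodendrocyte-like cells its pooled level was 11648 CPM (interval 11625 to 11670), with 10857 CPM on plate Pdgfra1 and 12119 CPM on plate Pdgfra2. All 150 cells had reads, 148 had at least 100 CPM and 72 had at least 10000 CPM, and the median cell had 9718 CPM. The pool of fibroblast-like cells came close, at 9530 CPM, but with a different spread among cells. There the median cell had 10.6 CPM, 17 of 76 cells had at least 10000 CPM, 30 had at least 100 CPM, and 34 had from 1 to 4 reads. The 5 highest fibroblast-like cells held 68.3% of the class's Ptgds reads, against 11.0% for the 5 highest oligodendrocyte-like cells, and the highest single cell had 249422 CPM. The 2 fibroblast-like pools stood at 6594 CPM on plate Pdgfra1 and 34250 CPM on plate Pdgfra2, on either side of the oligodendrocyte-like pools.

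**Figure D2:**
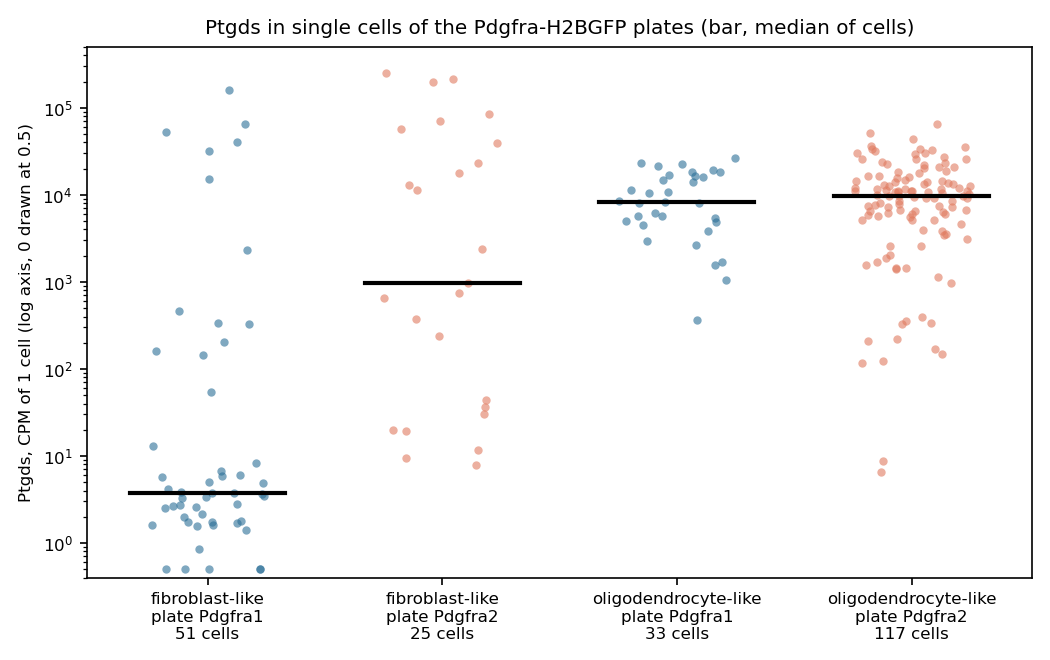
Ptgds in single cells (CPM of each cell, log axis, cells at 0 drawn at 0.5) of the fibroblast-like and oligodendrocyte-like classes on plates Pdgfra1 and Pdgfra2, each point a cell and each bar the median of the cells. Of 150 oligodendrocyte-like cells 148 have at least 100 CPM, while 30 of 76 fibroblast-like cells do and 17 of these reach 10000 CPM.

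Low Ptgds reads in the other classes came from very few cells. Endothelial-like and mural-like classes had a Ptgds read in 0.948 to 2.44% of cells. In the capillary-like class (10.5 CPM) 5 of 738 cells held 95.7% of the reads, and 1 cell on plate Pdgfra2, with 13324 CPM, held 54.5% of them, and in the venous-like class (6.04 CPM) 5 of 403 cells held 99.8%. Oligodendrocyte markers were counted in the same sorts. Mbp, which encodes myelin basic protein and stood at 10778 CPM in oligodendrocyte-like cells, had a read in 0.948 to 2.73% of cells of these 5 classes. In fibroblast-like cells it was read in 62 of 76 cells (81.6%, interval 71.0 to 89.5%), at 7.30 CPM pooled, against 71 cells (93.4%, interval 85.3 to 97.8%) with a Ptgds read. The 34 fibroblast-like cells with 1 to 4 Ptgds reads lie at a level that Mbp also reaches there, and their reads are not taken as expression. After thinning every cell to 100000 reads, 46 of 76 fibroblast-like cells kept a Ptgds read.

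Ptgis (ENSMUSG00000017969.13, chr2:167191805-167240604, minus strand), the prostacyclin synthase, marked smooth muscle-like cells, fibroblast-like cells and the endothelium of larger vessels. Its pooled level was 262 CPM in smooth muscle-like cells, 220 CPM in fibroblast-like cells, 63.7 CPM in venous-like and 45.8 CPM in arterial-like endothelium, 6.21 CPM in capillary-like endothelium and 0.0430 CPM in pericyte-like cells. Reads were present in 84 of 211 smooth muscle-like cells (39.8%, interval 33.2 to 46.8%) and in 16 of 1126 pericyte-like cells (1.42%), each of the latter with 1 read. Plates of smooth muscle-like cells stood at 268, 148, 307 and 308 CPM, and the 4 pericyte-like pools of the same plates lay between 0.0292 and 0.0613 CPM, so that the groups were far apart on every plate. The top 2 classes, smooth muscle-like and fibroblast-like, overlapped in their plate values (148 to 308 against 194 to 223 CPM) and are not ordered.

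Within smooth muscle the Ptgis level differed between the 2 sub-clusters, which were formed without it. The sub-cluster of 100 cells in which all 5 arterial smooth muscle markers were high, led by Actg2, Atf3 and Cnn1, had 422 CPM and a read in 68.0% of cells, with plates from 264 to 554 CPM. The other sub-cluster, 111 cells led by Actr3b and Olfr78 with 2 of the 5 markers high, had 107 CPM and a read in 14.4% of cells, with plates from 34.7 to 274 CPM. Both sub-clusters lay on the same 4 mural plates. The log2 ratio between them was 1.96 in the pools, from 1.96 to 3.69 on plates Mural4, Mural5 and Mural6, and -0.05 on plate Mural3, where the sub-clusters stood at 264 and 274 CPM.

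In endothelium Ptgis was read in 81 of 403 venous-like cells (20.1%), 39 of 334 arterial-like cells (11.7%) and 13 of 738 capillary-like cells (1.76%). Venous-like plates stood at 109, 84.6, 39.2 and 24.1 CPM, and every one lay above the highest capillary-like plate, at 20.0 CPM. Arterial-like plates stood at 91.5, 18.3, 38.5 and 33.0 CPM, and 1 of them, EC4, lay below its own capillary-like pool. Ptgis was among the 10 leading genes of the venous-like cluster, ranked by fold among genes above a minimum CPM, and the cluster was formed without it. Of the 81 venous-like cells with Ptgis, 10 (12.3%) also had a cyclooxygenase read, and of the 322 without it 16 (4.97%) did. The binomial intervals of these shares, 6.08 to 21.5% and 2.87 to 7.94%, overlap. Among the 84 smooth muscle-like cells with Ptgis, 1 had a cyclooxygenase read.

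**Figure D3:**
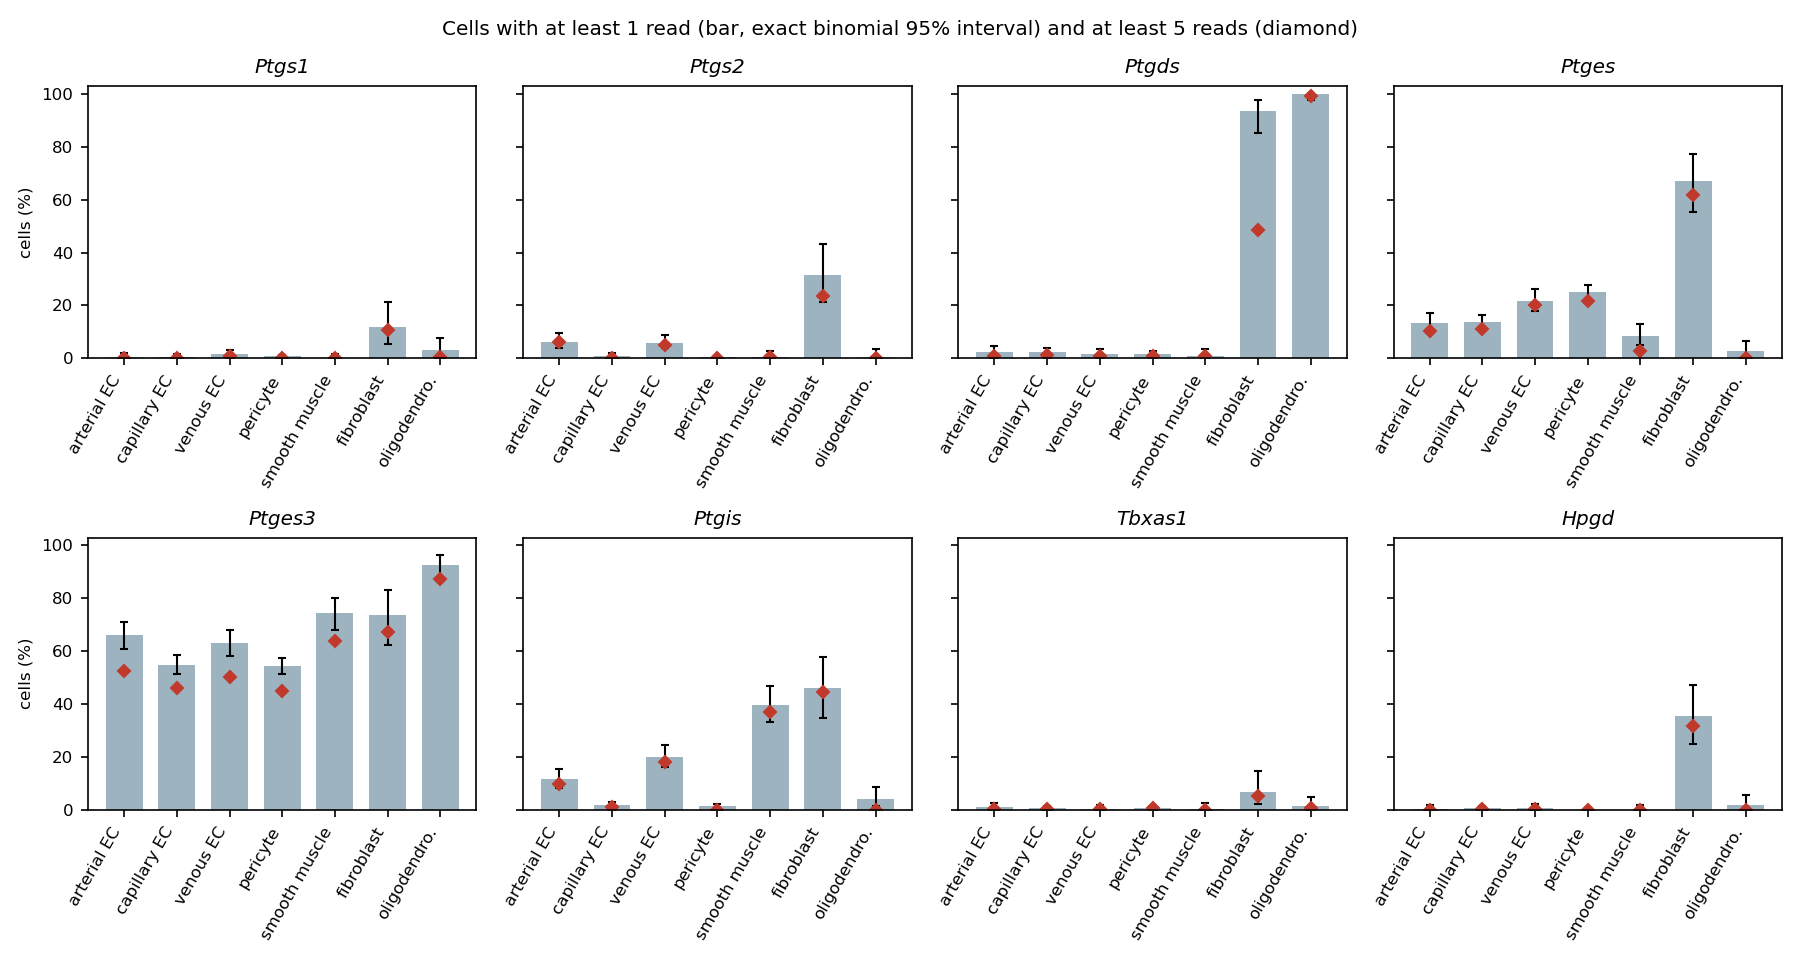
Share of cells with at least 1 read of each gene (bars, percent, with exact binomial 95% intervals) and with at least 5 reads (diamonds) in 7 classes. Ptgis is read in 39.8% of smooth muscle-like and 46.1% of fibroblast-like cells and in 1.42% of pericyte-like cells, and the order is turned for Ptges, with 8.53% of smooth muscle-like and 25.0% of pericyte-like cells.

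Ptges (ENSMUSG00000050737.13, chr2:30889471-30929863, minus strand), the inducible prostaglandin E synthase of membranes, had its highest level in fibroblast-like cells. Per kilobase of exon it was the highest of the 8 genes in pericyte-like cells, at 26.9 CPM, closely followed by Ptges3 at 23.0 CPM. It stood at 406 CPM in fibroblast-like cells, 106 CPM in pericyte-like cells, 67.2 CPM in venous-like, 40.9 CPM in capillary-like and 29.2 CPM in arterial-like endothelium, 15.4 CPM in smooth muscle-like cells and 0.0462 CPM in oligodendrocyte-like cells. The 4 pericyte-like plates lay close together, at 89.1, 119, 102 and 111 CPM, and 281 of 1126 cells had a read (25.0%, interval 22.5 to 27.6%). The fibroblast-like plates stood at 440 and 124 CPM, both above every pericyte-like plate. Among smooth muscle-like cells, 5 of 211 cells held 92.5% of the Ptges reads and the plates ran from 0.143 to 29.0 CPM. The sub-cluster with all 5 arterial smooth muscle markers had 2.20 CPM of Ptges and the other had 28.2 CPM. Venous-like plates of Ptges (42.0 to 96.4 CPM) and capillary-like plates (26.2 to 54.0 CPM) overlapped, as did capillary-like and arterial-like plates (11.9 to 44.6 CPM).

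Ptges3 (ENSMUSG00000071072.12, chr10:128058954-128077272, plus strand) was the most even of the 8 genes. It lay between 34.9 CPM, in arterial-like endothelium, and 53.7 CPM, in oligodendrocyte-like cells, and was read in 54.4 to 92.7% of the cells of each class. The plate values of all 7 classes overlapped with those of another class. Its relative Ptges3l has a row of its own, with 72.7 CPM in smooth muscle-like cells and 14.2 CPM or less in the 6 other classes. Reads shared between these genes could have been split in counting, and the Ptges3 values are uncertain to that extent.

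Tbxas1 (ENSMUSG00000029925.13, chr6:38875404-39084585, plus strand), the thromboxane synthase, was near 0 in all 7 classes. Its highest level was 1.96 CPM, in 5 fibroblast-like cells, and the endothelial-like and mural-like classes had from 0.0258 to 0.483 CPM in 1 to 6 cells each. At these depths no difference between the classes was read from it. The gene overlaps Hipk2 on the other strand, which had 169 CPM in oligodendrocyte-like cells against 0.173 CPM of Tbxas1.

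Hpgd (ENSMUSG00000031613.9, chr8:56294585-56321043, plus strand), the breakdown enzyme, was read among the 7 classes in fibroblast-like cells alone above 0.461 CPM. There it stood at 247 CPM in 27 of 76 cells (35.5%, interval 24.9 to 47.3%), 24 of them with at least 5 reads. The plates stood far apart, at 276 CPM on Pdgfra1 and 0.553 CPM on Pdgfra2. Smooth muscle-like cells had 0 reads in 211 cells and pericyte-like cells 1 read in 1126 cells. Of the 27 fibroblast-like cells with Hpgd, 26 also had Ptges. Over the class Ptges was read in 51 of 76 cells (67.1%), and in 93.3% of cluster 2, described below, where Hpgd was high. Of the 24 fibroblast-like cells with Ptgs2, 14 had Hpgd.

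Several of the genes met in 1 cell in many fibroblast-like cells. Leaving out the widely read Ptges3, 3 or more of the other 7 genes were read in 57.9% of fibroblast-like cells, in 1.24% of venous-like endothelial cells, in 2.67% of oligodendrocyte-like cells, in 0.474% of smooth muscle-like cells and in 0 of 334 arterial-like, 738 capillary-like and 1126 pericyte-like cells. The share was higher, at 68.4%, in the 19 microglia-like cells outside the 7 classes. The fibroblast-like share contains the low Ptgds reads described above, which were not taken as expression. These cells were also the deepest, with a median of 625675 reads against 334266 in pericyte-like cells, and the part of depth in this share was not tested.

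The fibroblast-like class was made up of 2 clusters, and 5 of the 8 genes, none of which took part in the clustering, differed between them by at least 2-fold. Describing them apart was decided after the class had been seen. Cluster 1 had 46 cells, 23 on each plate, and was led by Fam180a, Smoc2, Pi16 and Myoc. Cluster 2 had 30 cells, 28 of them on plate Pdgfra1, and had Car3, Wnt2 and Hpca among its leading genes. Slc6a13, a solute carrier in the marker list of fibroblasts, stood at 1200 CPM in cluster 1 and 6.49 CPM in cluster 2, while Dcn, the collagen-binding proteoglycan decorin, stood at 28372 and 9098 CPM. The cells of cluster 2 were deeper, with a median of 1010300 reads against 360658.

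Ptgds was high in cluster 1 and low in cluster 2, with 21366 against 16.2 CPM. All 17 fibroblast-like cells of at least 10000 CPM lay in cluster 1, as did 28 of the 30 cells of at least 100 CPM. Ptgis followed the same direction, with 385 CPM (52.2% of cells) against 86.7 CPM (36.7%). The opposite order was seen for Hpgd, with 8.30 CPM (6.52% of cells) in cluster 1 against 439 CPM (80%) in cluster 2, for Ptgs2, with 48.9 CPM (13.0%) against 448 CPM (60%), and for Ptges, with 175 CPM (50%) against 593 CPM (93.3%). Ptgs1 (46.2 and 51.7 CPM) and Ptges3 (39.6 and 38.4 CPM) were alike in level in the pools.

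By the same 2-fold rule, 2 of the 8 genes were higher in cluster 1 and 3 in cluster 2, with Tbxas1 under the minimum. Of 11587 genes tested, 23.8% and 21.3% were, so that the count in cluster 1 is near the share over all genes. These shares include the genes used for clustering, which the shares given for the other comparisons leave out, and are therefore only a rough measure. On plate Pdgfra1, which held 23 and 28 cells of the clusters, the log2 ratio of cluster 1 to cluster 2 was 10.85 for Ptgds, 2.23 for Ptgis, -1.62 for Ptges, -2.95 for Ptgs2 and -5.34 for Hpgd. Plate Pdgfra2 held 2 cells of cluster 2 and gives no comparison. With every cell thinned to 100000 reads, Hpgd was read in 4.35% of cluster 1 and 76.7% of cluster 2, Ptgs2 in 10.9 and 50%, Ptges in 47.8 and 93.3%, and Ptgds in 82.6 and 16.7%. Plate Pdgfra2, with its 2 cells of cluster 2, had a low Hpgd level, and those 2 cells did not show the high level of cluster 2 (log2 ratio 0.73). The part of cluster makeup and of the plate in this level was not tested. Summed pericyte markers were at 6743 CPM in cluster 1 and 1541 CPM in cluster 2, and summed endothelial markers at 1718 and 2487 CPM. Summed arachnoid barrier markers were at 576 CPM in cluster 1 and 36.8 CPM in cluster 2, with a median cell at 0 in both, and summed astrocyte markers at 756 and 112 CPM. Their part in the Ptgds values was not tested. Wells counted as mixed were then left out, a screen that did not use the arachnoid barrier or astrocyte lists. The 32 and 28 cells left could still hold other markers below its limit. In them Ptgds stood at 31501 against 16.8 CPM and Ptgis at 250 against 91.2 CPM. Ptges stood at 159 against 619 CPM, Ptgs2 at 4.49 against 347 CPM and Hpgd at 0.289 against 430 CPM, so that all 5 kept their direction.

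**Figure D4:**
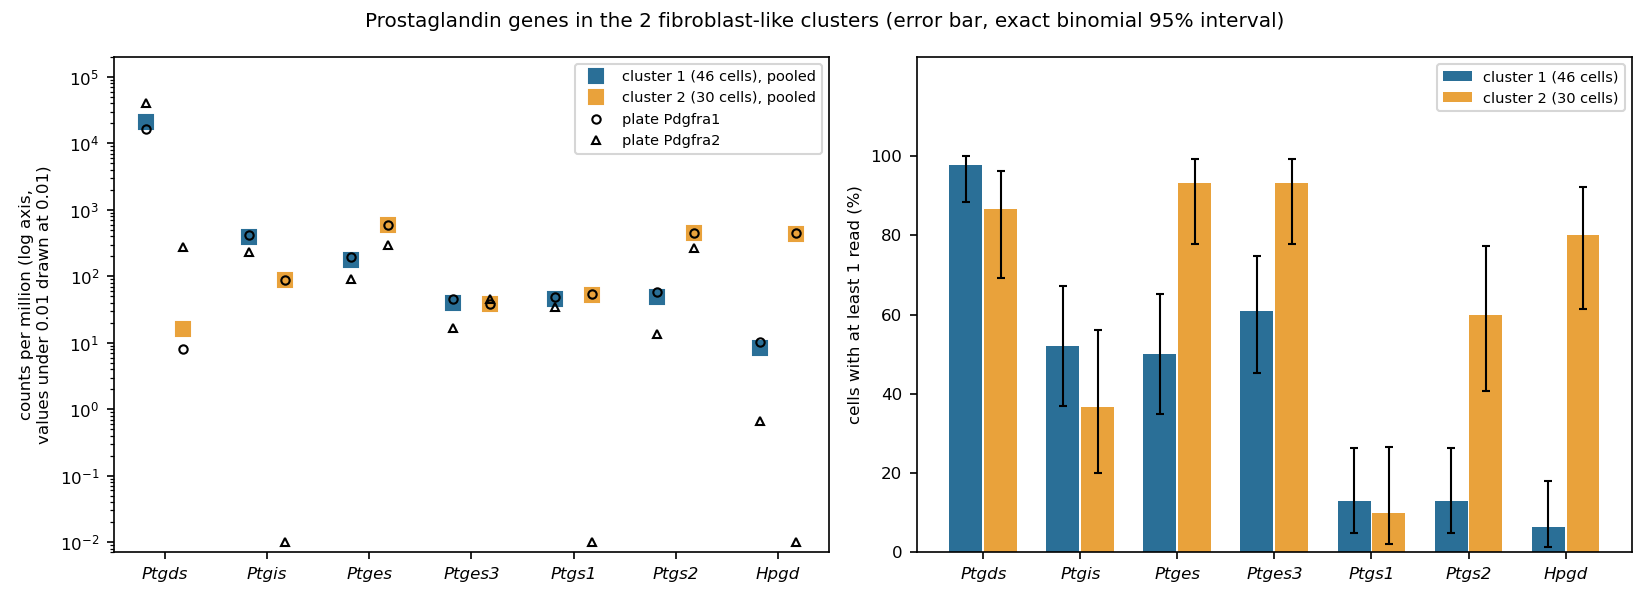
Level (left, CPM on a log axis, values under 0.01 drawn at 0.01) and share of cells with at least 1 read (right, percent, with exact binomial 95% intervals) of 7 of the 8 genes, all but Tbxas1, in fibroblast-like cluster 1 (46 cells) and cluster 2 (30 cells). Squares are pooled cells, circles plate Pdgfra1 and triangles plate Pdgfra2, which holds 2 cells of cluster 2. Ptgds and Ptgis are higher in cluster 1, and Ptges, Ptgs2 and Hpgd are higher in cluster 2.

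Zones of endothelium share the 4 Cldn5(BAC)eGFP plates and could be compared within each plate. Arterial-like against capillary-like endothelium, Ptgis and Ptgs2 were called higher and Ptgds lower, while 2 genes lay within 2-fold and 3 were under 5 CPM on both sides. Of 7776 genes tested, 5.92% were called higher and 3.85% lower in arterial-like cells. The median log2 ratio of the 5 genes tested was -0.21, against 0.00 over all genes. Ptgis differed by 2.70 on the log2 scale, from -0.12 to 6.32 over the plates, and Ptgs2 by 4.31, from -0.17 to 5.45, so that in both the plate EC4 showed no difference of the pooled direction. Ptgds differed by -2.20 on the log2 scale, from -3.95 to 1.64 over the plates, and its call rests on 1 capillary-like cell of plate Pdgfra2. In the Cldn5(BAC)eGFP line alone, pools chosen after the data were seen, Ptgds stood at 1.55 and 4.94 CPM (log2 ratio -1.22), under the 5 CPM minimum, while Ptgis (2.62) and Ptgs2 (4.34) were still called higher.

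Venous-like against capillary-like endothelium, the same genes, Ptgis and Ptgs2, were called higher and none lower. Of 7718 genes tested, 3.76% were called higher and 2.67% lower. The log2 ratio of Ptgis was 3.17, from 1.84 to 6.57 over the plates, and that of Ptgs2 was 4.26, from 2.47 to 5.52, so that both genes stood higher on each of the 4 plates. Ptges differed by 0.70 on the log2 scale, from -0.34 to 1.30, below the 2-fold limit. Both comparisons use the capillary-like cells. Arterial-like against venous-like endothelium, no gene was called higher and Ptges and Ptgds were called lower, where 6.29% of 7867 genes were higher and 5.55% lower. Ptges differed by -1.18 on the log2 scale, from -2.91 to 0.09 over the plates, and Ptgds by -1.48, from -4.63 to 2.21. Neither call held without 1 plate: Ptges differed by -0.75 without plate EC4, and Ptgds by 0.95, under the minimum, without plate EC6. Ptgis (-0.47) and Ptgs2 (0.05) differed little in the pools between arterial-like and venous-like cells, and over the plates the Ptgs2 ratio ran from -4.68 to 1.96.

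**Figure D5:**
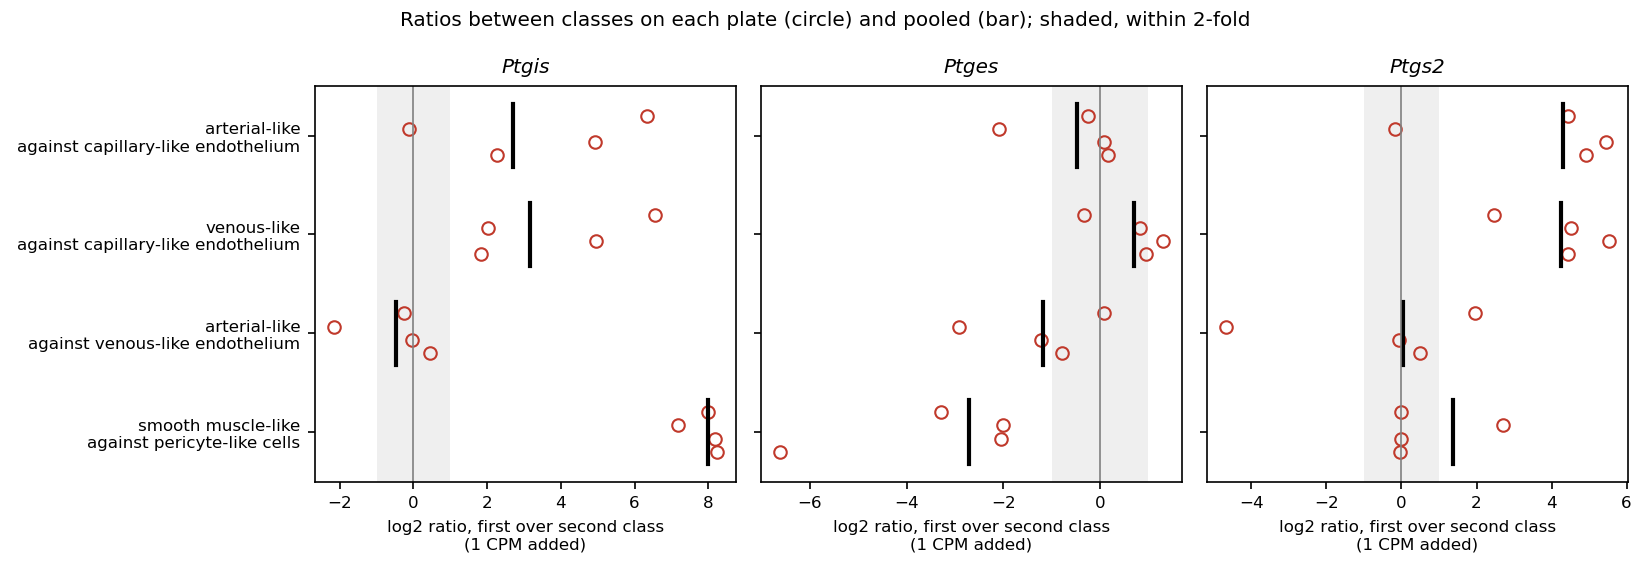
Log2 ratio of the CPM (1 CPM added) of Ptgis, Ptges and Ptgs2 between classes that share plates, on each of 4 plates (circles) and over the pooled cells (bars); the shaded band covers ratios within 2-fold. Ptgis and Ptgs2 stand above 0 on all 4 plates for venous-like over capillary-like endothelium, and Ptgis above 7 and Ptges below -2 on all 4 plates for smooth muscle-like over pericyte-like cells.

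Smooth muscle-like against pericyte-like cells, which share the 4 mural plates, Ptgis was called higher and Ptges lower. Ptgis differed by 7.98 on the log2 scale, from 7.17 to 8.23 over the plates, and Ptges by -2.70, from -6.61 to -2.01, so that neither changed direction on any plate. Of 8293 genes tested, 12.9% were called higher and 14.2% lower, and 5 of the 8 genes were under 5 CPM on both sides. Pericyte markers summed to 9822 CPM in smooth muscle-like cells and 69448 CPM in pericyte-like cells. Their part in the Ptges level of smooth muscle-like cells was not tested.

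Endothelial-like against pericyte-like cells, Ptgds, Ptgis and Ptgs2 were called higher and Ptges lower, where 16.1% of 8381 genes were higher and 18.7% lower. Here class and line change together. The mural plates held 11 to 14 endothelial-like cells on 3 plates, and in these the log2 ratio was from -0.09 to 0.28 for Ptgis, from -0.40 to 0.00 for Ptgs2 and from -2.45 to 0.10 for Ptgds, against 4.97, 3.93 and 1.22 in the pools. Of the endothelial-like cells of the mural sort 25 were capillary-like, 9 venous-like and 7 arterial-like, and they held 1 Ptgis read and 0 Ptgs2 reads. In the Cldn5(BAC)eGFP line a Ptgis read was present in 1.69% of capillary-like, 20.3% of venous-like and 11.7% of arterial-like cells, and a Ptgs2 read in 0.985, 6.09 and 6.44%, so that few such cells allow no statement on these 2 genes within the mural plates. Without plate Pdgfra2 the Ptgds ratio was 0.62, at 4.35 against 2.49 CPM, under the minimum. Ptges was lower in the pools (-1.20) and on each of these plates (-6.58 to -0.49). Its reads in the endothelial-like cells of the mural sort came from 3 capillary-like and 2 venous-like cells. The plate values of Ptges thus rest on too few cells to add to the pooled ratio.

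Fibroblast-like against oligodendrocyte-like cells, which share both Pdgfra-H2BGFP plates, 5 genes were called higher and none lower, where 35% of 9090 genes were higher and 18.4% lower. The log2 ratios, with the values on the 2 plates, were 7.69 for Ptgis (7.60 and 7.58), 8.60 for Ptges (8.62 and 6.97), 5.28 for Ptgs1 (5.59 and 4.43), 8.07 for Ptgs2 (8.17 and 5.77) and 7.90 for Hpgd (7.99 and 0.64). On plate Pdgfra2 alone Hpgd, at 0.553 CPM, was not called, Ptges3 was called lower (-1.53) and Ptgds higher. Ptgds, at -0.29 in the pools, was lower on plate Pdgfra1 (-0.72) and higher on plate Pdgfra2 (1.50). The median of the 7 genes tested was 7.69, against 0.34 over all genes. Oligodendrocyte-like cells thus had Ptgds and Ptges3 and less than 0.3 CPM of each of the other 6 genes.

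Fibroblast-like against smooth muscle-like cells share no plate. Ptgds (log2 ratio 11.46), Ptges (4.64), Ptgs2 (6.61), Ptgs1 and Hpgd were called higher and none lower, where 23.5% of 8990 genes were higher and 18.8% lower. Against the limit of 3 counts over the smooth muscle-like pool, Ptgs1 was at least 1272-fold and Hpgd at least 6380-fold higher. The Hpgd value rests on plate Pdgfra1: without it fibroblast-like cells stood at 0.553 CPM, the log2 ratio was 0.64 and the gene was not called, while Ptges3, at 21.4 against 48.5 CPM, was called lower. Ptgis differed by -0.25 on the log2 scale.

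A list of 61 other genes of arachidonate and prostaglandin metabolism, 55 of them in the files, was counted by the same rule. The shares over all genes, higher then lower, follow in brackets. Of its genes with at least 5 CPM on a side, 3 were higher and 2 lower of 25 in arterial-like against capillary-like endothelium (5.92 and 3.85%). In venous-like against capillary-like endothelium 5 were higher and 3 lower of 26 (3.76 and 2.67%). In arterial-like against venous-like endothelium 4 were higher and 3 lower of 26 (6.29 and 5.55%). In smooth muscle-like against pericyte-like cells 10 were higher and 10 lower of 33 (12.9 and 14.2%). In endothelial-like against pericyte-like cells 11 were higher and 13 lower of 33 (16.1 and 18.7%). In fibroblast-like against oligodendrocyte-like cells 23 were higher and 5 lower of 38 (35 and 18.4%), with a median log2 ratio of 2.44 beside 0.34 over all genes. In fibroblast-like against smooth muscle-like cells 17 were higher and 6 lower of 39 (23.5 and 18.8%). Outside the comparison with oligodendrocyte-like cells the list's medians lay between -0.33 and 0.47, against -0.10 to 0.00 over all genes.

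Among genes that release arachidonate, Pla2g4a, the cytosolic phospholipase A2, followed a pattern close to Ptgs2 in endothelium: 86.1 CPM in arterial-like, 71.9 CPM in venous-like and 14.7 CPM in capillary-like cells. The arterial-like plates (71.4 to 112 CPM) and the venous-like plates (41.1 to 114 CPM) all lay above the capillary-like plates (5.28 to 20.4 CPM). It stood at 358 CPM in fibroblast-like cells and 3.82 CPM in pericyte-like cells, and within fibroblasts at 101 CPM in cluster 1 and 564 CPM in cluster 2, the order of Ptgs2. Pla2g7, which hydrolyses platelet-activating factor, stood at 190 CPM in fibroblast-like cells, with 0.703 CPM in cluster 1 and 342 CPM in cluster 2. Pla2g15, a lysosomal phospholipase, ranged from 11.3 to 27.2 CPM over the 7 classes.

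Among other synthases, Hpgds, the haematopoietic prostaglandin D synthase, stayed at 3.32 CPM or less in the 7 classes, so that Ptgds was the prostaglandin D synthase read in oligodendrocyte-like and fibroblast-like cells. Cbr1, a carbonyl reductase that can act on prostaglandin E2, ranged from 23.9 to 70.4 CPM and Ptges2, another prostaglandin E synthase, from 18.6 to 35.6 CPM. Of the transporters, Abcc4, which exports prostaglandins, was highest in endothelium, at 349, 369 and 403 CPM in arterial-like, capillary-like and venous-like cells against 7.87 CPM in pericyte-like cells. Slco3a1, an organic anion transporter that carries prostaglandins, reached 373 CPM among pericyte-like cells and 252 CPM among fibroblast-like cells, with at most 0.526 CPM in endothelium.

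Of the receptors, Tbxa2r, the thromboxane receptor, was high in pericyte-like cells at 593 CPM (80.5% of cells) and stood at 190 CPM in smooth muscle-like cells, while Tbxas1 was at 0.435 and 0.0258 CPM in these classes. Ptger4, a prostaglandin E2 receptor, stood at 117 CPM in fibroblast-like cells, and Ptgfr, the prostaglandin F receptor, at 103 CPM, with 218 CPM in cluster 1 and 11.5 CPM in cluster 2. Among further genes of breakdown, Akr1c14, a hydroxysteroid dehydrogenase, was at 364 CPM in capillary-like, 333 CPM in arterial-like and 143 CPM in venous-like endothelium, and Zadh2, a prostaglandin reductase, was at 24.7 to 48.0 CPM. Among other arachidonate oxygenases and epoxide hydrolases, Alox12, the 12-lipoxygenase, was at 334 CPM in arterial-like, 55.8 CPM in capillary-like and 10.6 CPM in venous-like endothelium, Ephx1 was highest in pericyte-like cells at 836 CPM, and Cyp2j6 was highest in oligodendrocyte-like cells at 78.0 CPM.

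The genes most like each member were ranked by Pearson r of log2(CPM + 1) over 24 pools of 1 class on 1 plate, among 8782 genes. The pools of a plate share libraries and depth, and r is given as a description. Hpgd was closest to Dpt (0.985), a fibroblast gene that also served to name clusters, then to Agtr2 and Plk5. These r rest on 1 pool, the fibroblast-like cells of plate Pdgfra1 (276 CPM of Hpgd), with at most 1.85 CPM in any other. The pools join both fibroblast-like clusters. Dpt was a leading gene of cluster 1, where Hpgd stood at 8.30 CPM against 439 CPM in cluster 2, so that this r shows no likeness between cells. Ptgds was closest to Itgb8 (0.948), Il33 and Slc45a3, Ptgs1 to Clmp (0.916), Ptges to Mxra7 (0.896), Nid2 and Epor, Ptgs2 to P2ry1 (0.895), S100a10 and Wnt5a, and Ptgis to Jun (0.854), Eln and Id2. Ptges3 and Tbxas1 reached 0.779 with Vapa and 0.743 with Scml4. Among the 8 genes themselves the highest r was 0.635, between Tbxas1 and Hpgd, and Ptgs1 and Ptgs2 stood at 0.616. Tbxas1 stood at 2.19 CPM or less in every pool, so that its r values rest on levels near 0 and show no link.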

How the data were processed

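Reads were aligned with STAR 2.4.2a to the mouse build mm10, per the submitters' processing notes; the counter, its strand setting and its gene models are unstated. The deposited matrices hold counts, whole reads per gene and cell without molecular tags, and the authors' scaled values, rounded to whole numbers and used here only as an alternative, which are treated as a score because each cell's total lies between 499421 and 501418. All columns matched a sample by its description. Cells had at least 500 genes; none was removed, and no doublet caller was run, a well being counted as mixed where a foreign marker list summed to at least 10% of its median in its own class.

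Counts were scaled to CPM with numpy 2.4.6 and pandas 2.3.3. Clusters came from 30 principal components of log values of 2946 variable genes taken from a random 50% of all genes other than the 8 members and their pathway, 15 neighbours and Leiden clustering (igraph 0.11.9, resolution 1), first over all cells and then within endothelial-like and mural-like cells. A cluster took the name of the marker list with the largest share of markers high in it, if at least 3 and more than 50% were. High means at least 20 CPM and at least 25% of the highest cluster for all cells, or 50% for sub-clusters. No name was given where markers of another class prevailed among the cluster's leading genes. Intervals used scipy 1.17.1. Of the steps, only the 2-fold call rule was tested on simulated counts, drawn as Poisson pools without spread between cells. All 8 members are named, and other pathway genes where they reach 20 CPM in a class, up to 3 per role; for each member the 3 most alike genes are named. A few genes that these rules or a cluster's leading genes would name are not reported here. Members, lists and alternatives were chosen with earlier results of these data known. Exon lengths and positions come from the GENCODE annotation of the mm10 build.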

Additional observations from a re-analysis of the deposited data

Results flagged for a closer look

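Ptgds and Ptges3 moved in opposite directions on the 2 Pdgfra-H2BGFP plates between fibroblast-like and oligodendrocyte-like cells. The log2 ratio of Ptgds was -0.72 on plate Pdgfra1 and 1.50 on plate Pdgfra2, and that of Ptges3 was 0.15 and -1.53. The difference between the plates was not tested. The plates differ in the makeup of the fibroblast-like class: 28 of the 30 cells of cluster 2, where Ptgds was at 16.2 CPM, lay on plate Pdgfra1.

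The 19 microglia-like cells entered no comparison and held high levels of 3 members: Ptgs1 at 668 CPM in 13 cells, Tbxas1 at 571 CPM in 14 cells and Hpgd at 429 CPM in 14 cells, while Ptgs2 had 0 reads, which allows up to 0.320 CPM. Markers of another class were high in 7 of these 19 wells. Hpgds stood at 608 CPM there.

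Unnamed mural cells also held reads. The 41 cells led by Moxd1 and Coch had Hpgd at 25.1 CPM in 4 cells and Ptgs2 at 21.7 CPM in 3 cells. The 24 cells led by endothelial genes had Ptgs2 at 24.8 CPM in 2 cells. The 14 sets of 4 plates were examined for a plate whose gap to the next filled most of the range, and none had one. That rule finds only an extreme gap and does not show that plates agree. Arterial-like Ptgs2, at 0.64 CPM on plate EC4 and 29.8 to 50.0 CPM on the others, was not flagged.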

How the results depend on the processing

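A class is 1 sample, so that values rest on pooled cells, and 5 cells often hold most reads of Ptgs1, Ptgs2 and Tbxas1. No paired analysis was possible because the results come from no test; the ratios within shared plates stand in the report. The settings with no minimum CPM and with a smaller CPM added could, by construction, turn no sign and lose no call. Of 414 alternative values of the 23 called ratios, theirs included, 412 kept their sign, and 12 values of 6 ratios lost the call. These 6 are the ones that fell on leaving out 1 plate: Hpgd in fibroblast-like cells against either other class (0.64 without plate Pdgfra1), Ptges (-0.75 without EC4) and Ptgds (without EC6) in arterial-like against venous-like endothelium, and Ptgds in arterial-like against capillary-like endothelium (-1.20) and in endothelial-like against pericyte-like cells (0.62) without Pdgfra2. Calls were gained in 37 values, so that an equal count can hold different members. Over all ratios, called or not, 399 values moved past their counting interval and 639 did not. The 639 include every value with no minimum CPM, a setting that leaves the ratio unchanged. The sign turned for Ptgds in arterial-like against capillary-like endothelium with zones set by marker score (log2 ratio 0.82) and for Ptgds in arterial-like against venous-like endothelium without plate EC6 (0.95). Of 151 counts of members under alternatives, 143 stayed within 1.5 times. With no minimum CPM the counts were 6 for arterial-like against capillary-like endothelium (3 in the report), 4 for venous-like against capillary-like (2), 4 for arterial-like against venous-like (2) and 6 for smooth muscle-like against pericyte-like cells (2). Venous-like against capillary-like also gave 4 when clustered on all genes and at sub-cluster resolution 2. Arterial-like against venous-like gave 0 with zones by marker score and 1 without plate EC6. Naming clusters of all cells at 50% of the highest level, an alternative chosen after seeing the data, left a fibroblast-like cluster unnamed and moved no count past 1.5 times.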
